A study of Mus musculus with 12 samples.

Results

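The immediate early and AP-1 genes are 10 genes chosen by symbol: Fos, Fosb, Fosl1, Jun, Junb, Atf3, Egr1, Klf4, Ier2 and Dusp1. All 10 had a row among the 52636 genes of the count files, and all 10 were among the 24065 genes tested. The RNA came from pancreatic ductal adenocarcinomas. The mice were KPC mice, a genetically engineered model of pancreatic cancer, on a mixed C57BL/6 and 129 background. Untreated mice carried Cdh11 as KPC/CDH11+/+ (wild-type) or KPC/CDH11+/- (heterozygous), and the other mice had the same 2 genotypes and were given gemcitabine, a deoxycytidine analogue. Each group had 3 mice, and the 12 libraries were made from bulk tumour tissue. The promoter of the Cre recombinase, the animals' ages and the gemcitabine dose were not stated in the labels.

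Immediate early genes are transcribed within minutes of a growth factor, stress or injury signal, from factors already present in the cell, and their messages are short-lived. Kinases of the MAP kinase family switch on serum response factor and ATF/CREB proteins at their promoters. The products include the subunits of AP-1, a dimer of a Jun protein with a Fos, Jun or ATF protein that binds DNA, and inhibitors such as Dusp1 that shut the kinases off again. In pancreatic tissue they respond to growth factor signalling, to inflammation and also to handling of the tissue.

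The promoters of Fos, Fosb, Atf3 and Dusp1 are shown because these genes differed most between mice of one group among the members that RefSeq's promoter table (GRCm38.p6) holds. It held 7 of the 10; Egr1, Fosl1 and Ier2 had no entry. Each sequence is the 250 bases before the RefSeq start, 5′ to 3′ on the gene's own strand. Capitals mark TGACG or its reverse complement CGTCA, the core of the cyclic AMP response element that ATF/CREB proteins bind.
Fos (chr12:85473640-85473889, plus strand): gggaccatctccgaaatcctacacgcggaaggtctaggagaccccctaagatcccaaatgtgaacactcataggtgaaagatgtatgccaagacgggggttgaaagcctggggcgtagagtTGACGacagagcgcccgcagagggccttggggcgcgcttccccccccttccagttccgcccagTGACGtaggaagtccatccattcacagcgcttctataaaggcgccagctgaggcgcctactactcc
Fosb (chr7:19310046-19310295, minus strand): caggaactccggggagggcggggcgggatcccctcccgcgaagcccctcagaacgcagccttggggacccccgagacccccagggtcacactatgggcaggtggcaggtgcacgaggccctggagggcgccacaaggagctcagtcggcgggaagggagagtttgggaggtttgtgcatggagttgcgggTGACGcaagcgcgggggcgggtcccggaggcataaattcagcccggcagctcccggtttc
Atf3 (chr1:191183334-191183583, minus strand): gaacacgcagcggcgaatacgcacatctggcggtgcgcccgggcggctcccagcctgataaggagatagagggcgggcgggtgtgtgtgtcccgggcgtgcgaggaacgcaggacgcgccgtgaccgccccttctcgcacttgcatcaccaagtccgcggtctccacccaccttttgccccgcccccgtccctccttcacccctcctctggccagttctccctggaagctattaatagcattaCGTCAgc
Dusp1 (chr17:26508473-26508722, minus strand): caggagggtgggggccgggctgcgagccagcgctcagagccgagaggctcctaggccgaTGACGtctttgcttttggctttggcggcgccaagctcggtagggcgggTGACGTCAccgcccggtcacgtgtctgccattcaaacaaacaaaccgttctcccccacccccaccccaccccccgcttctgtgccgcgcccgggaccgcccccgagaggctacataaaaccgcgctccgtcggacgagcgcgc

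The 5 letters of that core were present in 6 of the 7 member windows, Atf3, Klf4, Fosb, Junb, Fos and Dusp1, and in 17.8% of 32851 windows of the same length over all genes. Dusp1 alone held the full palindrome TGACGTCA, which contains the core on both strands, against 1.55% of all windows. The AP-1 site TGANTCA was in 0 of the 7 member windows and in 6.75% of all windows. The CArG box of serum response factor was in 0 of the 7 and in 1.47% of all windows. Only exact matches within these windows were counted, so a box farther upstream or with a changed letter would be missed. Both strands were searched. These are matches of letters, and no binding was measured.

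Levels are given as CPM, counts scaled to a common library size with TMM factors. The libraries held between 39388328 and 56559413 expected counts. Cdh11, the gene whose copy number differs, was at 224 ± 58.8 CPM (SD) in untreated wild-type and 112 ± 37.4 CPM in untreated heterozygous tumours (edgeR adjusted p = 0.33). In treated tumours it was at 109 ± 41.7 and 107 ± 34.7 CPM (edgeR adjusted p = 0.996), which does not separate them, so the treated groups are called by their labelled genotype. This holds for both treated groups, since the one labelled wild-type lay near the untreated heterozygous tumours. Treated wild-type below means so labelled. Xist, expressed from the inactive X chromosome, was at 1322 CPM or more in 6 libraries and at most at 1.64 CPM in the other 6. The Xist-high libraries were untreated wild-type mice 1 and 3, untreated heterozygous mouse 1 and all 3 treated wild-type mice. All 3 treated mice labelled heterozygous were Xist-low, so that in treated mice genotype and sex cannot be told apart. Over both treatments genotype and sex were nearly aligned. Among the wild-type libraries only that of untreated mouse 2 was Xist-low, and among the heterozygous ones only that of untreated mouse 1 was Xist-high.

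Per kilobase of exon, Junb had the highest mean level, 91.2 ± 34.4 CPM per kilobase (SD over 12 libraries), and Fos followed with 33.4 ± 24.1. Klf4 (20.2 ± 6.84), Dusp1 (19.7 ± 14.4), Jun (19.1 ± 6.52) and Ier2 (18.8 ± 5.26) lay within each other's SD. Egr1 had 11.8 ± 8.37, Atf3 8.56 ± 6.57, Fosl1 5.61 ± 2.48 and Fosb 2.11 ± 2.91 CPM per kilobase. Junb stood above Fos, and Fosl1 above Fosb, by more than the SD of either gene, and the other neighbours in that order did not. The lowest count of any member in any library was 126, for Fosb, so that the counting error was small beside the spread between mice.

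The Fos proteins supply the partner that makes AP-1 bind tightly. Fos, on chromosome 12 (85473890 to 85477273, GRCm38), was at 158, 44.6 and 113 CPM in untreated wild-type mice 1, 2 and 3. In untreated heterozygous tumours it was at 62.0, 201 and 28.2 CPM, which spans nearly the whole range of the 12 libraries. Treated wild-type tumours had 58.0, 46.7 and 122 CPM, and treated tumours labelled heterozygous 38.6, 41.1 and 28.1 CPM. The last group lay below all 6 wild-type tumours and overlapped the untreated heterozygous ones.

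Fosb, a close relative of Fos on chromosome 7 (19302696 to 19310051), varied more than any other member. It was at 18.1, 4.45 and 30.4 CPM in untreated wild-type and 4.41, 65.0 and 4.15 CPM in untreated heterozygous tumours. With gemcitabine the wild-type tumours had 5.77, 4.97 and 8.25 CPM and those labelled heterozygous 3.53, 2.93 and 6.18 CPM. All groups overlapped, and 3 untreated tumours, wild-type mice 1 and 3 and heterozygous mouse 2, stood above all of the others.

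Fosl1 encodes Fra-1, a Fos protein without the transactivation domain of Fos, and lies on chromosome 19 (5447547 to 5455946). Its levels were 12.8, 3.46 and 19.8 CPM in untreated wild-type and 6.00, 14.1 and 9.53 CPM in untreated heterozygous tumours. After gemcitabine, wild-type tumours had 12.7, 19.5 and 13.7 CPM, all above the 9.10, 9.50 and 6.64 CPM of treated tumours labelled heterozygous. Its lowest library, untreated wild-type mouse 2, ranked 8 of 12 from the top for Fos and for Fosb.

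Jun is the best known partner of Fos and lies on chromosome 4 (95049034 to 95052222). It was at 63.4, 59.1 and 94.0 CPM in untreated wild-type and 57.3, 92.1 and 47.8 CPM in untreated heterozygous tumours. Treated wild-type tumours had 92.2, 46.4 and 55.5 CPM and treated tumours labelled heterozygous 45.9, 35.1 and 41.6 CPM. That last group was the lowest of the 4 and overlapped none of the others.

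Junb, on chromosome 8 (84974484 to 84978718), encodes a Jun protein that can oppose Jun. It was at 243, 140 and 314 CPM in untreated wild-type and 147, 324 and 160 CPM in untreated heterozygous tumours. Wild-type tumours given gemcitabine had 185, 252 and 334 CPM, all above the 151, 133 and 136 CPM of treated tumours labelled heterozygous. Junb differed between the highest and lowest library by 2.52-fold, against 22.2-fold for Fosb.

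Atf3, a stress-induced AP-1 partner on chromosome 1 (191170296 to 191218039), was at 14.9, 6.18 and 36.8 CPM in untreated wild-type and 8.24, 46.2 and 7.88 CPM in untreated heterozygous tumours. Treated wild-type tumours had 34.4, 13.9 and 28.7 CPM, and treated tumours labelled heterozygous 8.09, 9.81 and 6.08 CPM. The treated groups did not overlap, while the untreated groups did.

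Egr1 and Klf4 are zinc finger transcription factors; Egr1 is a direct target of serum response factor and Klf4 a factor of epithelial differentiation. Egr1, on chromosome 18 (34859823 to 34864984), was at 105, 35.9 and 60.4 CPM in untreated wild-type and 24.7, 110 and 19.5 CPM in untreated heterozygous tumours. With gemcitabine it was at 38.0, 30.7 and 122 CPM in wild-type and 27.7, 41.7 and 21.2 CPM in tumours labelled heterozygous, and all groups overlapped. Klf4, on chromosome 4 (55527143 to 55532466), was at 76.4, 48.4 and 91.4 CPM in untreated wild-type and 53.3, 79.4 and 101 CPM in untreated heterozygous tumours. It was at 53.2, 51.5 and 52.0 CPM in treated wild-type and 50.0, 52.1 and 28.6 CPM in treated tumours labelled heterozygous. For Klf4 the 3 treated tumours labelled heterozygous lay below all 3 untreated heterozygous tumours.

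Ier2 encodes a small nuclear protein induced by growth factors and lies on chromosome 8 (84661331 to 84662852). It was at 41.8, 24.5 and 23.6 CPM in untreated wild-type and 30.9, 28.9 and 29.0 CPM in untreated heterozygous tumours. Treated wild-type tumours had 36.9, 32.5 and 38.7 CPM and treated tumours labelled heterozygous 18.9, 20.0 and 17.3 CPM. The last group lay below all 9 other libraries, and its SD was 1.32 CPM around a mean of 18.7 CPM.

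Dusp1, a phosphatase that inactivates MAP kinases, is annotated on chromosome 17 (26505590 to 26562128). It was at 86.3, 45.7 and 140 CPM in untreated wild-type and 35.1, 173 and 17.4 CPM in untreated heterozygous tumours. With gemcitabine, wild-type tumours had 45.2, 25.9 and 75.9 CPM and treated tumours labelled heterozygous 64.4, 27.0 and 48.4 CPM. The highest and the lowest of all 12 libraries were both untreated heterozygous tumours, and all groups overlapped.

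**Figure D1:**
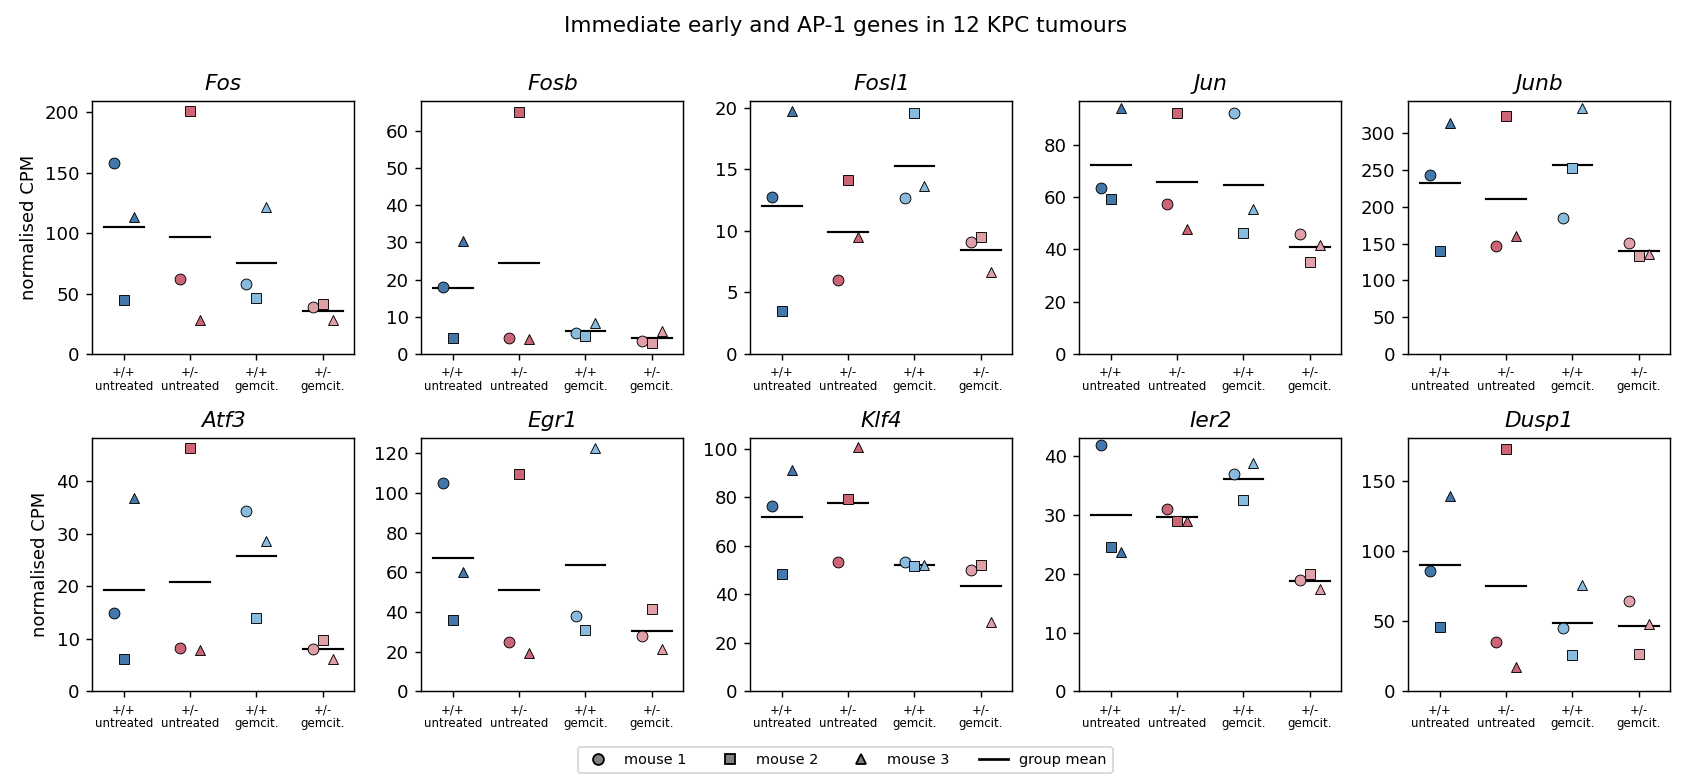
Normalised CPM (linear axis from 0) of the 10 genes in 12 tumours, with 1 point per mouse, a marker shape for each mouse number and a line at the group mean. Untreated heterozygous mouse 2 is the highest point for Fos, Fosb, Atf3 and Dusp1, and the 3 treated tumours labelled heterozygous lie close together at the low end for Ier2 (17.3 to 20.0 CPM).

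Most of these genes varied more between mice of a group than genes of like level. The biological coefficient of variation, the share by which a gene's true level varies between mice of a group, was 77.5% for Fosb, 62.0% for Atf3, 61.5% for Dusp1, 58.7% for Egr1 and 54.7% for Fos. Each of these 5 lay above at least 94.5% of the 1000 tested genes nearest to it in level, whose medians were between 24.0% and 31.3%. Fosl1 (45.9%), Junb (32.3%), Jun (29.1%) and Klf4 (28.3%) lay above between 74.3% and 82.6% of theirs. Ier2 was the exception, with 23.7%, above 28.0% of the genes nearest in level. Each coefficient pools the 4 groups, and the spread was uneven among them. Fosb was at 24.5 ± 35.1 CPM (SD) in untreated heterozygous tumours and at 4.22 ± 1.73 CPM in treated tumours labelled heterozygous. Atf3 was at 20.8 ± 22.0 and 7.99 ± 1.87 CPM in the same order. Egr1 also spread widely in treated wild-type tumours, at 63.8 ± 51.0 CPM. These are descriptions, and no test was made of them.

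**Figure D2:**
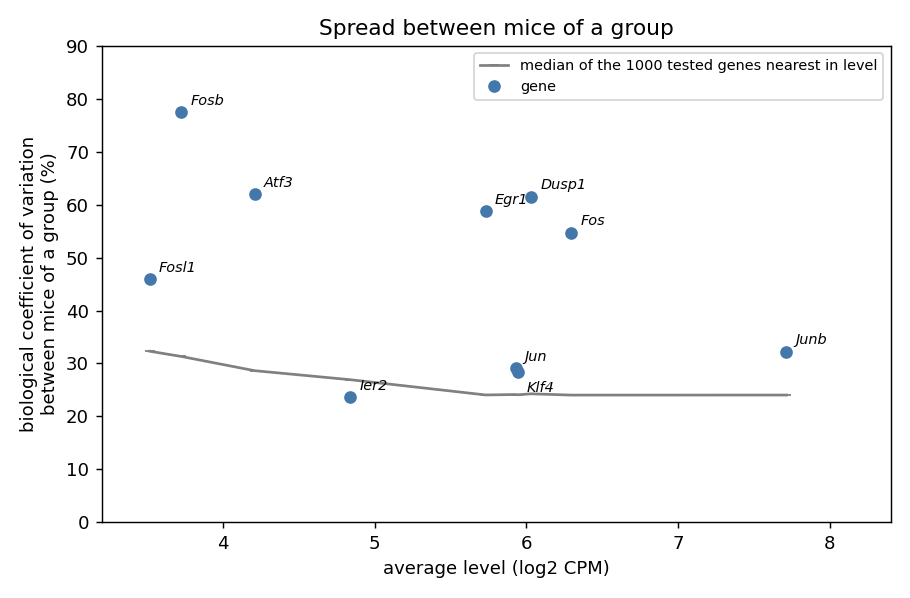
Coefficient of biological variation within groups (%, vertical axis) against average level (log2 CPM, horizontal axis) for the 10 genes as points, with a grey line for the median of the 1000 tested genes nearest in level. Fosb (77.5%), Atf3, Dusp1, Egr1 and Fos lie far above the line, and Ier2 (23.7%) lies under it.

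Most of the genes were high or low in the same tumours. Untreated heterozygous mouse 2 was among the 3 highest libraries for 9 of the 10 genes and the highest for 4. Untreated wild-type mouse 3 was among the 3 highest for 7, untreated wild-type mouse 1 for 5 and treated wild-type mouse 3 for 4. Treated mouse 3 labelled heterozygous was among the 3 lowest for 8 of the 10, and its group-mates for 5 each. Low levels were not particular to that group: untreated heterozygous mouse 3 was among the 3 lowest for 5 members and untreated wild-type mouse 2 for 4. The libraries that were among the 3 highest for 0 members were untreated wild-type mouse 2, untreated heterozygous mouse 1 and the 3 treated tumours labelled heterozygous. The mean standardised log2 level over the 10 genes was 1.32 SDs in untreated heterozygous mouse 2 and -0.46 and -0.50 in mice 1 and 3 of the same group. In treated tumours labelled heterozygous it was -0.61, -0.74 and -1.04. Untreated wild-type mouse 2, at -0.67, lay within that range, while mice 1 and 3 of its group were at 0.79 and 1.04. Treated wild-type tumours were at 0.28, -0.10 and 0.69.

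Over the 12 libraries the 45 pairs of members had a median Pearson correlation of 0.56 and a median Spearman correlation of 0.57, with Pearson values from 0.08 to 0.92 and Spearman values from -0.02 to 0.85. After the group means were taken out, the median over the pairs was 0.54 and the lowest, Jun with Ier2, -0.14. The highest was Fos with Egr1, at 0.92 (0.94 without the group means), and the lowest was Ier2 with Dusp1, at 0.08. Ier2 and Klf4 were the least alike with the others, with medians of 0.44 and 0.46 over their 9 pairs. Libraries and depth are shared by all pairs, so the values are given as descriptions.

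**Figure D3:**
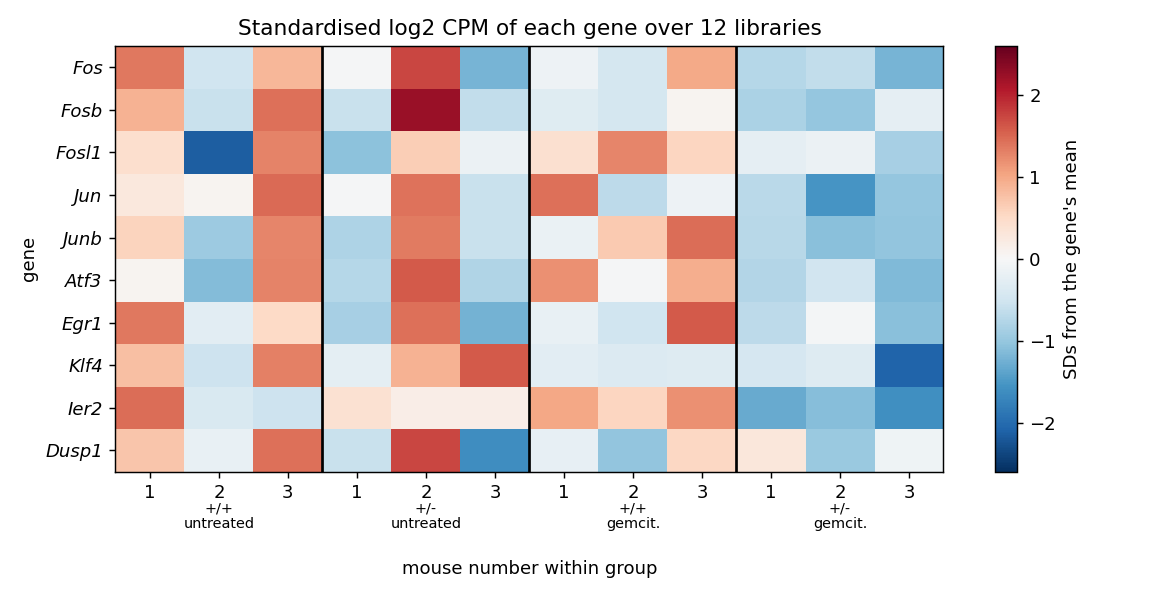
Standardised log2 CPM (colour, in SDs from each gene's own mean over the 12 libraries) for the 10 genes in rows and the 12 libraries in columns, ordered by group and mouse number. Untreated wild-type mice 1 and 3, untreated heterozygous mouse 2 and treated wild-type mouse 3 are red for most genes. Untreated wild-type mouse 2, untreated heterozygous mice 1 and 3 and the 3 treated tumours labelled heterozygous are mostly blue.

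The genotype comparison in untreated mice asks what 1 lost Cdh11 copy does without drug. In untreated heterozygous against wild-type tumours 7 members had lower and 3 higher group estimates, with a median log2 fold change of -0.13 against 0.04 over all genes tested. By edgeR's quasi-likelihood test with Benjamini-Hochberg adjustment 0 of 10 passed, where 0.0166% of all genes did, and 0 had an unadjusted p under 0.05, where 12.2% of all genes did. Lower estimates were found for 46.3% of all genes, and the groups overlapped for all 10 members, whereas they did not for 15.8% of all genes. DESeq2 also called 0 members, where it called 2.94% of all genes. The intervals were wide: that of Fosb ran from -1.62 to 2.57 and that of Fos from -1.55 to 1.31, while Ier2 was held between -0.50 and 0.47. Single tumours moved the median. Without untreated heterozygous mouse 2 the median was -0.93, with Fosb at -2.04, Dusp1 at -1.79 and Egr1 at -1.60, and 0 members passed (lowest edgeR adjusted p = 0.23). With the other libraries left out in turn it lay between -0.35 and 0.16, the latter without untreated wild-type mouse 3, and its sign changed in 4 of the 12 fits.

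The wild-type comparison of gemcitabine with no treatment asks what the drug does to these genes in mice labelled wild-type. Cdh11 itself was at 224 ± 58.8 CPM in the untreated and 109 ± 41.7 CPM in the treated tumours of that comparison (edgeR adjusted p = 0.56). There were 4 members with higher and 6 with lower estimates, with a median log2 fold change of -0.12 against 0.01 over all genes, of which 48.9% had lower estimates. Of the 10, 0 passed (edgeR), as did 0% of all genes, and 0 had an unadjusted p under 0.05, against 8.6% of all genes; DESeq2 called 0 members and 0.521% of all genes. The largest estimates were those of Fosb, at -1.48 ± 0.98 (SE, edgeR adjusted p = 0.68), and Dusp1, at -0.89 ± 0.75 (adjusted p = 0.74). Without untreated wild-type mouse 3 these were -0.84 and -0.43. Dusp1 was at -0.58 without treated wild-type mouse 2 and at -1.35 without treated wild-type mouse 3. The median ran from -0.32 to 0.08 over the 12 fits that each left out 1 library, with a change of sign in 2. Atf3 had 0.41 ± 0.74 and Fosl1 0.35 ± 0.51. None of the 10 separated the groups, where 13.7% of all genes did.

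In heterozygous mice the question is the same, and all 10 members had lower estimates with gemcitabine, as did 53.2% of all genes. The median was -0.73, against -0.03 over all genes. By edgeR 0 passed, where 0.00831% of all genes did. An unadjusted p under 0.05 with a lower level was found for 3, Ier2, Klf4 and Fosb, and for 3.48% of all genes. DESeq2 called 0 members, where it called 0.754% of all genes. Ier2 had a log2 fold change of -0.66 ± 0.22 (95% interval -1.15 to -0.17, edgeR adjusted p = 0.59), Klf4 -0.84 ± 0.30 (-1.50 to -0.17, adjusted p = 0.59) and Fosb -2.54 ± 1.01 (-4.76 to -0.32, adjusted p = 0.60). The groups did not overlap for Klf4, Jun and Ier2, and did not overlap in that direction for 6.08% of all genes. Without untreated heterozygous mouse 2 the median was -0.08 and Fosb stood at -0.02, whereas Klf4 (-0.82) and Ier2 (-0.68) kept their size. Mice 2 and 3 of the untreated heterozygous group and all 3 treated mice were Xist-low.

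The genotypes were also compared under gemcitabine. In the labelled heterozygous tumours all 10 members had lower estimates, as did 53.1% of all genes, with a median log2 fold change of -0.87 against -0.03. The groups did not overlap for 6 members, Fos, Fosl1, Jun, Junb, Atf3 and Ier2, and did not overlap in that direction for 6.59% of all genes. By edgeR 0 passed over all genes, where 0.00416% of genes did. An unadjusted p under 0.05 with a lower level was found for 3 members and for 2.89% of all genes. Since the members move together between tumours, they are not independent of one another, and these counts do not add up as separate observations.

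Ier2 had the smallest p of the 10 in that comparison, with 18.7 ± 1.32 CPM in the labelled heterozygous and 36.0 ± 3.23 CPM in the wild-type tumours (SD, n = 3 each). Its log2 fold change was -0.94 ± 0.22 (95% interval -1.44 to -0.45, edgeR unadjusted p = 0.00136, adjusted p = 0.55). DESeq2 called Ier2 (adjusted p = 0.018), the only member it called in any comparison, where it called 0.266% of all genes lower. Voom did not (adjusted p = 0.78). Junb had -0.88 ± 0.36 (-1.67 to -0.08, edgeR adjusted p = 0.62) and Atf3 -1.68 ± 0.76 (-3.36 to -0.01, adjusted p = 0.66). Fos had -1.07 ± 0.66 and Egr1 -1.08 ± 0.71, with intervals that include 0, and Dusp1 -0.07 ± 0.74. Without treated wild-type mouse 3 Egr1 was at -0.19 and Fos at -0.54, and the median at -0.59. With a term for Xist-high libraries in the model, chosen after seeing the data, the Ier2 estimate was -0.69 (edgeR adjusted p = 1), that of Fosl1 was -0.24 in place of -0.86, and the median was -0.70. Since no treated group held both kinds of library, that term was estimated from the untreated mice alone.

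**Figure D4:**
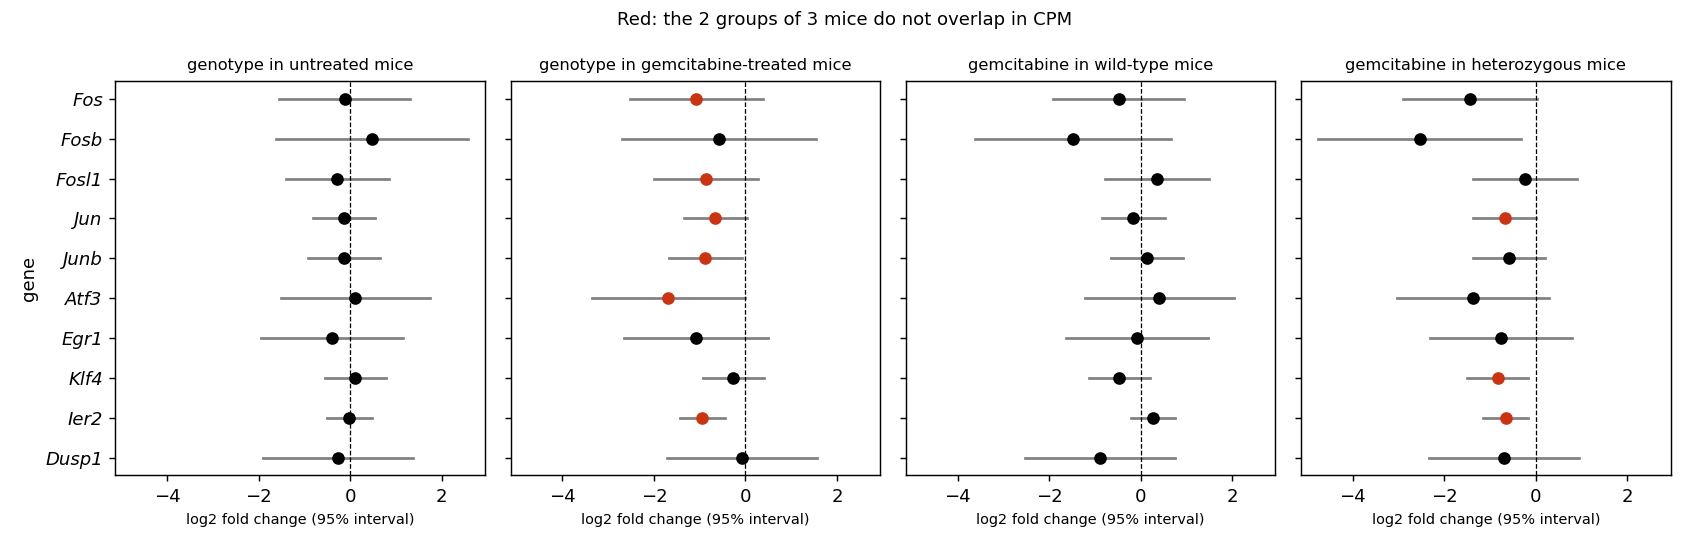
Log2 fold change (horizontal axis) with its 95% interval from edgeR for the 10 genes in 4 comparisons, in red where the 2 groups of 3 mice did not overlap in CPM. In treated mice all 10 points lie below 0 and 6 are red, and in untreated mice and in wild-type mice no point is red.

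The difference of the gemcitabine effects between genotypes was tested as an interaction. It was below 0 for 9 of 10 members, as for 54.2% of all genes, with a median of -0.71 against -0.07. By edgeR 0 members passed, where 0.00831% of all genes did. DESeq2 called 0, where it called 2.95% of all genes. Ier2 was at -0.93 ± 0.31 (95% interval -1.62 to -0.24, edgeR unadjusted p = 0.0129, adjusted p = 0.28) and was the only member with an unadjusted p under 0.05, where 5.52% of all genes had one with a lower value. Atf3 was at -1.79 ± 1.06 (adjusted p = 0.53). The gemcitabine responses of the members were not shown to differ between the genotypes. Without untreated heterozygous mouse 2 the median of the difference was -0.22.

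Averaged over treatments, heterozygous tumours had lower estimates for all 10 members, as for 48.7% of all genes, with a median of -0.50 against 0.01, and 0 passed (edgeR; 0.0332% of all genes did). Ier2 alone had an unadjusted p under 0.05, where 3.96% of all genes did with a lower level. Its log2 fold change was -0.48 ± 0.16 (edgeR adjusted p = 0.47). Genotype and sex were nearly aligned in this comparison, as given above. The same limit holds for each genotype difference averaged over treatments below. Averaged over genotypes, gemcitabine gave lower estimates for 9 members and 50.9% of all genes, with a median of -0.45 against -0.01, and 0 passed (edgeR; 0.00831% of all genes did). Klf4 (-0.65 ± 0.21) and Fosb (-2.01 ± 0.70) had unadjusted p under 0.05, where 2.2% of all genes did with a lower level, and both had an adjusted p of 0.94. Without untreated heterozygous mouse 2 the median over the 10 was -0.12. DESeq2 called 0 members in either comparison, where it called 1.29% and 0.121% of all genes.

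Other genes of the pathway were taken from lists. Of 14 further AP-1 and related leucine zipper genes 0 passed in any of the 7 comparisons (edgeR). In treated mice 7 had higher and 7 lower estimates in the labelled heterozygous tumours, with a median of 0.03, where 53.1% of all genes had lower ones. With gemcitabine 9 of the 14 had lower estimates in either genotype, with medians of -0.24 in wild-type and -0.20 in heterozygous mice. Over all genes 48.9% and 53.2% had lower estimates with gemcitabine, in the same order. Maf, a large Maf protein found in macrophages, was at 71.8 ± 26.7 CPM in untreated wild-type and 33.5 ± 10.2 CPM in untreated heterozygous tumours (log2 -1.10 ± 0.34, edgeR adjusted p = 0.27). Batf3, a partner of Jun in dendritic cells, had a low level throughout. It was at 0.852 ± 0.505 CPM in untreated and 0.231 ± 0.0305 CPM in treated wild-type tumours (log2 -1.87 ± 0.55, edgeR adjusted p = 0.56). Mafk, a small Maf protein, had -0.79 ± 0.31 with gemcitabine in heterozygous mice (adjusted p = 0.60).

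Of 35 other immediate early genes 34 were tested and 0 passed in any comparison (edgeR). In treated tumours labelled heterozygous 27 of the 34 had lower estimates than in treated wild-type tumours, with a median of -0.33, and 2 lower and 1 higher had an unadjusted p under 0.05. Over all genes 53.1% had lower estimates there, and 2.89% were lower with an unadjusted p under 0.05. With gemcitabine 27 had lower estimates in heterozygous mice (median -0.35) and 23 in wild-type mice (median -0.15). Over all genes 53.2% and 48.9% had lower estimates, in the same order. Rhob, an endosomal small GTPase, was at 201 ± 22.2 and 149 ± 37.4 CPM in untreated and treated wild-type tumours, and at 120 ± 17.8 and 83.2 ± 26.8 CPM in those labelled heterozygous. Its log2 fold change averaged over treatments was -0.80 ± 0.18 (edgeR adjusted p = 0.28). Nr4a3, an orphan nuclear receptor, was at 4.14 ± 1.31 and 3.43 ± 2.28 CPM in untreated and 1.12 ± 0.374 and 1.91 ± 0.570 CPM in treated wild-type and heterozygous tumours (log2 -1.36 ± 0.36 averaged over genotypes, adjusted p = 0.94). Arc, known from neurons, was highest in untreated heterozygous mouse 2, at 27.7 CPM, as were Fos and Fosb, and lay between 1.83 and 5.17 CPM in treated tumours labelled heterozygous.

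Upstream, 19 kinases and serum response or CREB factors were tested and 0 passed (edgeR). Their median log2 fold changes lay between -0.08 and 0.10 over the 7 comparisons. Elk3, a partner of serum response factor, was at 93.5 ± 17.3 and 92.3 ± 6.42 CPM in untreated and treated wild-type tumours. In heterozygous tumours it was at 68.4 ± 10.8 and 72.3 ± 1.57 CPM (log2 -0.40 ± 0.13 for genotype averaged over treatments, edgeR adjusted p = 0.44). Mapk9, a Jun kinase, had -0.41 ± 0.15 with gemcitabine averaged over genotypes (adjusted p = 0.94), and the ribosomal S6 kinase gene Rps6ka1 had 0.70 ± 0.27 in untreated heterozygous against wild-type tumours (adjusted p = 0.34). Among 8 EGF receptor ligands and receptors 0 passed. Betacellulin, Btc, a ligand of that receptor, was at 51.9 ± 26.2 CPM in treated wild-type and 15.5 ± 7.70 CPM in treated tumours labelled heterozygous (log2 -1.75 ± 0.51, adjusted p = 0.55). Egfr itself had -0.54 ± 0.21 with gemcitabine in wild-type mice (adjusted p = 0.56), and Erbb4 was at 0.94 CPM or less in every library.

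Of 26 genes that AP-1 is known to activate 25 were tested and 0 passed (edgeR). In treated tumours labelled heterozygous 17 had lower and 8 higher estimates, with a median of -0.44, where 53.1% of all genes had lower ones. In untreated heterozygous tumours 20 had lower and 5 higher ones, with a median of -0.48, where 46.3% of all genes had lower ones. With gemcitabine 14 had higher and 11 lower estimates in wild-type mice (median 0.03). In heterozygous mice 15 had higher and 10 lower ones (median 0.14). Over all genes 48.9% and 53.2% had lower estimates in these 2 comparisons. Involucrin, Ivl, an envelope protein of squamous cells, was at 72.9 ± 19.7 CPM in untreated wild-type and 27.2 ± 5.93 CPM in untreated heterozygous tumours. In treated tumours it was at 87.0 ± 26.2 and 25.1 ± 13.7 CPM in the same order. Averaged over treatments this was a log2 fold change of -1.61 ± 0.27 (edgeR adjusted p = 0.17). The metalloproteinase Mmp10 was at 5.87, 10.2 and 26.1 CPM in untreated wild-type and 2.13, 2.12 and 1.11 CPM in untreated heterozygous tumours (log2 -2.97 ± 0.58, adjusted p = 0.14). Mmp13, a collagenase, ran from 2.78 to 281 CPM, with its highest level in untreated wild-type mouse 3.

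Of 14 heat shock genes 0 passed (edgeR). Their summed level was 2574 CPM in untreated heterozygous mouse 2, which had the highest mean standardised level of the members, and 2782 and 4777 CPM in the other mice of that group. It was at its lowest, 2079 CPM, in treated wild-type mouse 3, where Junb and Egr1 were highest. In treated tumours labelled heterozygous it was between 2645 and 2844 CPM. The small heat shock protein Hspb8 was at 39.3 ± 2.76 and 28.5 ± 6.68 CPM in untreated and 18.5 ± 4.30 and 17.4 ± 3.52 CPM in treated wild-type and heterozygous tumours (log2 -0.90 ± 0.17 averaged over genotypes, adjusted p = 0.82). Hsph1, a chaperone, had 0.74 ± 0.27 in that comparison (adjusted p = 0.94), and the co-chaperone Bag3 -0.57 ± 0.22 for genotype in treated mice (adjusted p = 0.59).

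The genes most like the members were ranked by Pearson's correlation of log2 CPM with the members' mean standardised level over the 12 libraries, among 11604 genes of at least 5 CPM on average. The first 10 were Cmip (0.94), Efna1 (0.94), Fam160b1 (0.93), Atg9a (0.92), Myo5b (0.92), Ppp1r15a (0.92), Kdm6b (0.92), Casp6 (0.92), Glg1 (0.92) and Vps16 (0.91). Without the 2 libraries farthest from the median, untreated heterozygous mouse 2 and untreated wild-type mouse 3, they lay between 0.82 and 0.92. Ppp1r15a, a stress-induced regulator of protein phosphatase 1 and the only one of the 10 from the lists, ran from 14.3 to 97.0 CPM. Efna1, an ephrin ligand, ran from 12.8 to 125 CPM, and Kdm6b, a histone demethylase, from 35.2 to 101 CPM. The 10 were picked as the highest of 11604, so their values are descriptions.

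In bulk tissue, fewer cells of a type and less RNA per cell cannot be told apart. In treated tumours the summed macrophage markers (10 genes) lay between 1237 and 1890 CPM in the labelled heterozygous and between 620 and 1182 CPM in the wild-type group. Neutrophil markers (8 genes) lay at 60.4 to 152 and 31.6 to 72.9 CPM, fibroblast markers (12 genes) at 4511 to 8751 and 6187 to 15081 CPM, and duct epithelium markers (12 genes) at 3742 to 5072 and 4588 to 9550 CPM. T cell markers (10 genes) lay at 4.6 to 35.4 and 3.52 to 6.23 CPM, with higher estimates for 10 of 10 (median log2 2.87, 7 with an unadjusted p under 0.05 by edgeR). B and plasma cell markers (9 genes) lay at 484 to 2272 and 506 to 786 CPM, with higher estimates for 8 of 9 (median log2 3.64, 6 with an unadjusted p under 0.05). None of the markers named so far was at 0 throughout a group. Of 17 acinar markers, at 9.23 to 12.8 and 8.02 to 243 CPM, Prss1 was at 0 in both treated groups, and Pnlip, Amy2b and Ptf1a were at 0 in treated tumours labelled heterozygous. Of the 15 acinar markers tested, 14 had lower estimates in treated tumours labelled heterozygous, 10 of them with an unadjusted p under 0.05. Over all genes 53.1% had lower estimates there, and 2.89% were lower with an unadjusted p under 0.05. In untreated heterozygous tumours 6 were at 0, Prss1, Cela3b, Pnlip, Pnliprp1, Amy2a5 and Ptf1a, and in untreated wild-type tumours 0 were. In untreated tumours the fibroblast markers lay at 4297 to 7176 CPM in the heterozygous and 11443 to 17740 CPM in the wild-type group, and the erythroid markers (5 genes) at 26.2 to 689 and 305 to 528 CPM. The highest erythroid sum was that of untreated heterozygous mouse 2. With gemcitabine the erythroid sums lay at 35.8 to 124 CPM in wild-type tumours and 45.9 to 169 CPM in those labelled heterozygous. Averaged over genotypes 5 of 5 erythroid markers had lower estimates with gemcitabine, with a median log2 fold change of -1.90 and 5 with an unadjusted p under 0.05, and 0 passed (edgeR). Over all genes 50.9% had lower estimates in that comparison, and 2.2% were lower with an unadjusted p under 0.05. The part of these cell types and of blood in the results was not tested.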

How the data were processed

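Total RNA from snap-frozen tumours had been sequenced after depletion of ribosomal RNA with a stranded kit, per the labels. The authors deposited expected counts for each Ensembl gene, as whole numbers; the submitters' processing notes name RSEM and GRCm38. The annotation, the aligner and the strand setting were not given in the sources used here. Symbols, positions and exon lengths came from GENCODE M21. The test was edgeR 4.0.16 under R 4.3.3, with 1 model for all libraries (filterByExpr, TMM factors of 0.897 to 1.09, robust quasi-likelihood, 1 mean per group, 12 libraries, Benjamini-Hochberg over 24065 genes, threshold 0.05), and the fit was tested on simulated data. The log2 CPM values used a prior count of 2. Alternatives used DESeq2 1.42.0, limma 3.58.1 (voom), other factors and filters, the compared groups alone, a replicate block, a sex-chromosome term and each library left out.

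Genotype, treatment and mouse number came from the sample titles and labels. The labels number the samples of a group and do not say that each is a separate animal; they are called mice here, and p-values measure the spread between these samples. The members and lists were chosen with earlier results of these data known. Named genes are the members, Cdh11, up to 3 of each list by smallest p, and the 10 genes most like the members. For the members, totals of 39388328 to 56559413 counts per library make the spread between mice, not counting, the main limit.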

Additional observations from a re-analysis of the deposited data

How the results depend on the processing

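The count of members past the threshold was 0 in all 7 comparisons and stayed 0 under each alternative run, except that DESeq2 called 1, Ier2, in treated mice. When 1 of the 12 libraries was left out, the median log2 fold change of the members ran from -0.93 to 0.16 for genotype in untreated mice and from -1.04 to -0.078 for gemcitabine in heterozygous mice; the values -0.93 and -0.078 were those without untreated heterozygous mouse 2. In treated mice it ran from -0.95 to -0.59. With the sex-chromosome term the median for genotype in untreated mice was 0.10. Of 1440 values of single members under alternatives, 70 had another sign and 1 passed the threshold. With the replicate block the median in treated mice was -0.84 and 0 members passed. The labels do not say whether equal mouse numbers mark related samples. The deviations of the 18 same-numbered pairs had correlations from -0.25 to 0.17, with 4 above 0.1. Among the libraries of other groups, 3 of the 12 libraries were most alike with a library of their own number. Over all genes the block moved the calls from 8 to 4 for the genotype average and from 1 to 0 for genotype in treated mice. DESeq2 called 703, 237, 120, 170, 652, 304 and 29 genes, where edgeR called 4, 1, 0, 2, 2, 8 and 2, for genotype in untreated and in treated mice, gemcitabine in wild-type and in heterozygous mice, the difference of effects, the genotype average and the gemcitabine average. For genotype in untreated mice edgeR called 10 without a filter, 9 with the stricter filter and 2 with only the groups compared; for genotype in treated mice 12 with only the groups compared, 0 by voom and 0 with the sex-chromosome term; voom called 1 for the difference, and the sex-chromosome term left 3 for the genotype average. With a library left out, the calls over all genes ran from 2 to 12, 0 to 4, 0 to 1, 2 to 9, 2 to 7, 3 to 13 and 2 to 7 in the order above. The causes of these shifts were not tested. A prior count of 0.5 kept the same 10 most alike genes.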
